A study of Mus musculus with 6 samples.

Results

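Histone genes were selected from the gene table by name, as protein-coding genes whose symbol begins with Hist and a cluster number followed by h, with H1f and a digit or x, with H2af, or with H3f3. The rule uses no measured value, and it found 80 genes among the 54532 listed. By their names, 67 are replication-dependent genes, divided into linker histone H1 (6 genes), H2A (18), H2B (18), H3 (12) and H4 (13). The other 13 are replication-independent genes, which encode the variant histones of the H1f0, H1fx, H2af and H3f3 families.

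To determine how the GlyT1 inhibitor ALX-5407 affects Th1 cells, CD4+ T cells from the spleens of male C57BL/6 mice aged 6 to 8 weeks were sequenced in 2 groups of 3 libraries. All cells were activated through CD3 and CD28 and polarized towards Th1 with IL-2, IL-12 and an antibody against IL-4. The control group received vehicle (0.1% DMSO) and the ALX-5407 group received 500 nM of the inhibitor, for 72 h according to the labels. The study's methods for the cell culture also give harvest after 72 h, while its methods for RNA sequencing give a shorter exposure. The labels call the libraries biological replicates without saying whether they came from separate mice, so p-values measure the spread between these libraries, which may be technical.

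Histones package DNA. The core histones H2A, H2B, H3 and H4 form the octamer around which the DNA of a nucleosome is wound, and linker histone H1 binds where the DNA enters and leaves it. Replication-dependent histone genes lie in clusters and are expressed mainly in S phase, when newly copied DNA is packaged. Their mRNAs end in a conserved stem-loop in place of a poly(A) tail, and the stem-loop binding protein SLBP holds that end. Variant histones are made throughout the cell cycle, mostly from polyadenylated mRNAs, and replace the canonical histones at particular places in chromatin. In T cells, activation starts rapid division and therefore a large demand for new histones.

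The way RNA was selected bears on this gene family. The labels describe capture of mRNA on poly-T beads, whereas the study's methods describe removal of ribosomal RNA, and the sources used here do not settle which applies. An RNA that ends in the stem-loop is poorly captured by poly-T beads, so the counts of replication-dependent genes are those of whatever part of their RNA was captured, and the levels of such genes cannot be compared with those of the variants as amounts of mRNA. In bulk libraries, fewer cells of a type and less RNA per cell cannot be told apart. The same applies to the share of cells in S phase and the histone mRNA of each such cell.

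To show which members carry the stem-loop, the transcripts of every protein-coding gene in the GENCODE M21 annotation on GRCm38 were searched on the transcribed strand. The search took runs of 16 bases made of a stem of 6 pairs and a loop of 4 bases (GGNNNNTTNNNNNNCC with 6 complementary bases on each side). A run was found in 44 of the 67 replication-dependent genes, in 1 of the 13 replication-independent genes, H2afx, and in 85 of 21821 other protein-coding genes (0.39%). The sequences below are shown because they divide the H4 genes from the other classes. Capitals mark the stem and lower case the loop.
H1, H2A, H2B and H3 genes (26 genes, among them Hist1h1c, Hist1h1d, Hist1h1e, Hist1h2bj and Hist1h3a): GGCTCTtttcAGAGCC
H1, H2B and H3 genes (6 genes, among them Hist1h3c, Hist1h3e and Hist1h3f): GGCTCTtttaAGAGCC
Hist2h2ac: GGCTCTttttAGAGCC
H4 genes (7 genes, among them Hist1h4d): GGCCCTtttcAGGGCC
Hist1h4i and Hist2h4: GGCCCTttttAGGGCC
Hist1h4b and Hist1h4j: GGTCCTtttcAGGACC
H2afx: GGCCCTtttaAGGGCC
Outside H4 and H2afx, the stem read GGCTCT in every member in which a run was found. Within H4 it read GGCCCT or GGTCCT. H2afx carried the GGCCCT stem of H4 with the loop ttta, which 6 genes of H1, H2B and H3 also carried. The absence of a run says only that these letters are not in the annotated transcript.

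Depth was 30801753 to 33432304 counts in the control libraries and 34142475 to 36727788 in the ALX-5407 libraries. All histone genes together held 0.153% to 0.169% of a library. Of the 80 members, 11 had no count in any library, which at 3 counts per library allows a level of up to 0.0974 CPM (counts scaled to library size) in the shallowest one. For 5 of the 11, all in Hist2, every 100-base stretch also occurs in another gene, so a count of 0 sets no such limit on them. A further 25 had counts but too few to be tested, and 44 passed the filter on low counts, of which 28 would have passed on the control libraries alone. The 44 had a median of 34.2 counts per library, and 25 of them averaged under 50 counts, 24 of these being replication-dependent. Among the cell markers, CD4 T cell genes (Cd3e, Cd3g, Cd4 and Trac) summed to 1205 to 1417 CPM in the control group and 1055 to 1090 CPM in the ALX-5407 group, and 2 of the 4, Cd4 and Cd3g, were lower. The 4 B cell markers summed to 5.51 to 6.72 CPM and 7.41 to 10.4 CPM, with Cd79a and Ms4a1 higher, so they moved in the same direction as the histone genes at a low level. Macrophage and monocyte markers stayed at or under 0.655 CPM in sum, and Siglech, S100a8 and S100a9 had no count. Their part in the histone values was not tested.

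More histone genes were higher than lower in ALX-5407-treated Th1 cells, and all 5 replication-dependent H1 genes tested were among them. Of those 5, 3 would have passed the filter on low counts on the control libraries alone. In edgeR's quasi-likelihood test, 18 of the 44 members tested were higher at an adjusted p under 0.05, beside 24.5% of all 15938 genes tested, and 1 was lower, beside 23.2%. With the study's additional threshold of an absolute log2 fold change over 1, 9 members were higher, beside 3.36% of all genes tested, and 0 were lower, beside 6.68%. Of the 28 members that would have passed the filter on the control libraries alone, 14 were higher and 5 of these had a log2 fold change over 1. The median log2 fold change was 0.59 over the 44 members tested, 0.41 over those 28, and 0.0053 over all genes tested. Without Th1 replicate 2, the number of higher members was 10.

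The genes that rose were members of the Hist1 cluster and variants. Of 34 replication-dependent genes tested, 11 were higher and 0 were lower in edgeR, beside 24.5% and 23.2% of all genes tested. At an unadjusted p under 0.05, 0 were lower in edgeR, DESeq2 or limma-voom, and the median log2 fold change was 0.65. All 11 lie in Hist1, the large cluster on chromosome 13, which holds 54 members, 31 of them tested. In Hist2 on chromosome 3, 1 of 10 members could be tested and it did not pass. Both members of Hist3 on chromosome 11 were tested, and neither passed. In 13 of the 34 genes every ALX-5407 library lay above every control library, beside 28.4% of all genes tested, and in 1 gene every one lay below, beside 27.1%. Hist1h1b, Hist1h1a, Hist1h3f and Hist1h2bn would not have passed the filter on the control libraries alone. Such a filter favours genes that are higher in the treated libraries. Hist1h4c would not have passed on the control libraries alone either, and its log2 fold change was -0.36. It had 26, 9 and 15 counts with vehicle and 18, 18 and 8 with ALX-5407. Libraries of both groups thus brought Hist1h4c past the filter. Of the 19 replication-dependent genes that would have passed on the control libraries alone, 7 were higher, beside 24.5% of all genes tested. Their median log2 fold change was 0.54. By class, that median was 1.14 for 3 H1 genes, -0.09 for 3 H2A, 0.30 for 5 H2B, 0.74 for 5 H3 and -0.09 for 3 H4 genes. Over all tested members, it was 1.58 (5 H1 genes), 0.72 (5 H2A), 0.74 (9 H2B), 0.74 (7 H3) and 0.40 (8 H4). Among the 25 members with too few counts to test, the mean CPM was higher in the ALX-5407 group in 20 and lower in 5. The 20 include Hist2h2ab, with 1 count in all, and Hist1h2bl, at 0.227 CPM with vehicle and 0.234 CPM with ALX-5407. The share over all untested genes was not computed, so these numbers are a description only.

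**Figure D1:**
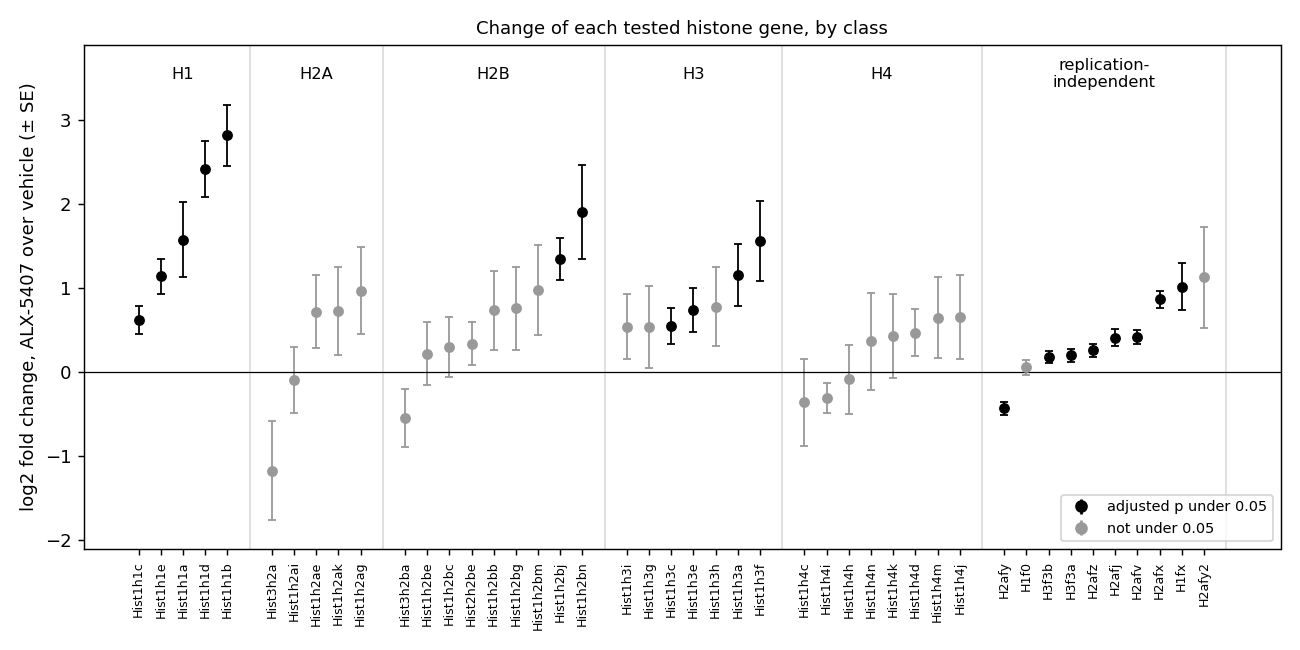
Log2 fold change of each of the 44 histone genes tested, ALX-5407 over vehicle, with its standard error, arranged by class. Black points passed an adjusted p of 0.05 and grey points did not. The 5 H1 genes lie above 0, from 0.62 to 2.82, while the points of H2A and H4 are grey and spread on both sides of 0.

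Summed over all members of a class, H1 differed most between the groups and H4 differed by less than the spread. H1 genes summed to 7.03, 8.54 and 9.48 CPM in the 3 control libraries and to 20.2, 20.4 and 18.04 CPM in the 3 ALX-5407 libraries. The means were 8.35 ± 1.24 and 19.5 ± 1.28 CPM (SD, n = 3), a ratio of 2.34. For H3 the means were 7.07 ± 2.05 and 11.8 ± 1.22 CPM (SD, n = 3), a ratio of 1.67. These groups of libraries did not overlap. H2B went from 8.24 ± 0.659 to 11.9 ± 1.48 CPM (SD, n = 3), a ratio of 1.44. H2A, the class with the fewest reads, went from 2.89 ± 0.386 to 4.05 ± 0.809 CPM (SD, n = 3), a ratio of 1.40, and neither class overlapped between groups. H4 stood at 10.9 ± 0.532 and 11.03 ± 1.53 CPM (SD, n = 3), a ratio of 1.01, with overlapping libraries. Of these sums, Hist1h4i alone held 6.41 CPM with vehicle and 5.155 CPM with ALX-5407. The median log2 fold change was 0.40 over the 8 H4 genes tested. It was -0.09 over the 3 that would have passed the filter on the control libraries alone. All replication-dependent genes together went from 37.5 ± 4.14 to 58.3 ± 4.95 CPM (SD, n = 3), a ratio of 1.56. They made up 2.17% to 2.76% of all histone reads in the control group and 3.43% to 3.86% in the ALX-5407 group. Replication-independent genes summed to 1544 ± 47.8 and 1545 ± 60.3 CPM (SD, n = 3), so their summed level differed by less than the spread. No test was made on these sums, since an exact permutation test of 3 libraries against 3 cannot give a p below 0.1.

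**Figure D2:**
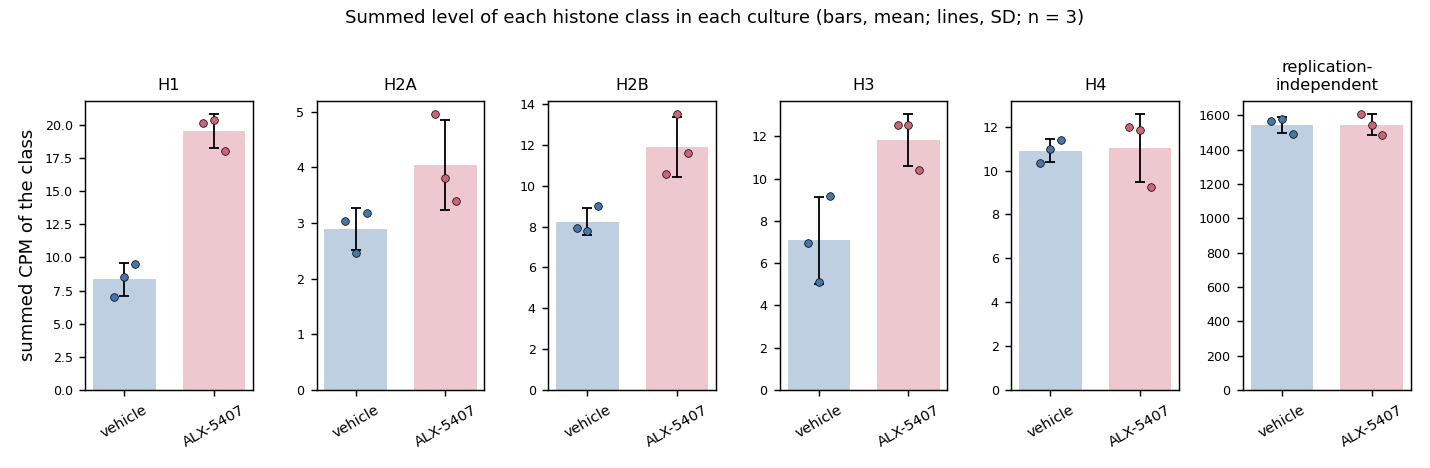
Summed CPM of each histone class in each library, with 1 panel and 1 linear axis from 0 for each class. Bars show the mean and lines the SD of 3 libraries, and points the single libraries. The H1 libraries separate widely, at 7.03 to 9.48 CPM with vehicle and 18.04 to 20.4 CPM with ALX-5407, whereas those of H4 and of the replication-independent genes overlap.

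Linker histone H1 genes encode somatic subtypes that differ mainly in their tails, and Hist1h1t encodes a testis subtype. All 5 somatic H1 genes of the Hist1 cluster rose, 4 of them by a log2 fold change over 1, and Hist1h1t had no count in any library. Hist1h1b and Hist1h1a would not have passed the filter on the control libraries alone. Of the other 3, 2 had a log2 fold change over 1. Hist1h1b, named H1f5 in RefSeq, had 8, 8 and 17 counts in the control libraries and 108, 91 and 70 in the ALX-5407 libraries. The groups were far apart, and the log2 fold change was 2.82 (SE 0.362, adjusted p = 8.88e-06 in edgeR). Hist1h1d, named H1f3, had 18, 12 and 45 counts in the control libraries and 162, 156 and 143 in the ALX-5407 libraries. Its control libraries were uneven, with Th1 replicate 3 well above the other two. The log2 fold change was 2.42 (SE 0.338, adjusted p = 2.1e-05), and 3.16 without that replicate.

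Hist1h1a, named H1f1, had 10, 10 and 9 counts with vehicle and 30, 24 and 45 with ALX-5407. The control libraries were close to each other and the treated ones were all higher, with a log2 fold change of 1.58 (SE 0.442, adjusted p = 0.00741). Without ALX replicate 3 its adjusted p was 0.0526. Hist1h1e, named H1f4, had 56, 63 and 50 counts with vehicle and 121, 156 and 148 with ALX-5407, a log2 fold change of 1.14 (SE 0.209, adjusted p = 0.00028). Hist1h1c, named H1f2, had the highest level per length of the 5, with 137, 175 and 171 counts with vehicle and 291, 333 and 227 with ALX-5407. It had the smallest change of the 5, a log2 fold change of 0.62 (SE 0.168, adjusted p = 0.00572), and its groups did not overlap either.

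The composition of the H1 reads differed between groups. Hist1h1c held 58.6% to 65.3% of the H1 reads in the control libraries and 35.9% to 43.8% in the ALX-5407 libraries. Hist1h1d held 4.48% to 15.4% in the control libraries and 20.5% to 22.8% in the ALX-5407 libraries. Hist1h1b held 2.99% to 5.82% and 11.1% to 15.2%, respectively. For these 3 genes the shares of the groups did not overlap, whereas those of Hist1h1e (17.1% to 24.5% and 17% to 23.4%) and Hist1h1a (3.08% to 4.37% and 3.16% to 7.11%) did. Reads of Hist1h1a and Hist1h1b can be assigned most firmly, since none of their 100-base stretches occurs in another gene and no other gene overlaps them. Hist1h1e shares 496 exon bases on the same strand with Hist1h2be, and the table's model of Hist1h1d spans 7425 bases, which lowers its level per length.

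The promoters of these 5 genes are shown because the genes rose together by different amounts. Each line gives the 150 bases before the RefSeq start site in GRCm38.p6, read 5′ to 3′ on the gene's strand. Capitals mark AAACACA (the H1 box), CCAAT and TATAA, each searched on both strands, so that ATTGG and TTATA are reverse matches, and overlapping matches run together.
Hist1h1b, chr13:21780626-21780775, − strand: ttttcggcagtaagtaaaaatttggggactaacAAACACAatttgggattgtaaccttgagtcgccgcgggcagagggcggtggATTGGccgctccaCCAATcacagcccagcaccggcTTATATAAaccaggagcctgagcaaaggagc
Hist1h1d, chr13:23554882-23555031, + strand: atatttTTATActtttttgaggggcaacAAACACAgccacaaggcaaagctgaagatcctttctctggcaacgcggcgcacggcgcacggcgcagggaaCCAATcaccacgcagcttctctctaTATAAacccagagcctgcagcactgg
Hist1h1a, chr13:23763518-23763667, + strand: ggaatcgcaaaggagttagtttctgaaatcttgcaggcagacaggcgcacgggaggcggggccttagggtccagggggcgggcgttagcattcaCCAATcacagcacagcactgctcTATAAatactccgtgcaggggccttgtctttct
Hist1h1e, chr13:23622559-23622708, − strand: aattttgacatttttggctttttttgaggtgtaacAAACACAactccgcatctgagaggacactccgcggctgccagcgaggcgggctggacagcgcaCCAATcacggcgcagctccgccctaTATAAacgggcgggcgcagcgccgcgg
Hist1h1c, chr13:23738657-23738806, + strand: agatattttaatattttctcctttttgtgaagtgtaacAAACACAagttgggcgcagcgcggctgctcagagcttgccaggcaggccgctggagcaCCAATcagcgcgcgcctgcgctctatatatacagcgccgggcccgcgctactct
Over the 250 bases before the start, AAACACA was found in 5 of 6 H1 promoters, all but that of Hist1h1a, in 2 of 18 H2A, 2 of 15 H2B, 0 of 10 H3 and 0 of 12 H4 promoters, and in 6.25% of all 32851 promoters. CCAAT was found in all 6 H1, 18 H2A and 15 H2B promoters, in 8 of 10 H3 and 3 of 12 H4 promoters, and in 33.8% of all promoters. TATAA was found in 5 of the 6 H1 promoters, all but that of Hist1h1c, and in 22.8% of all promoters. ATTTGCAT, the octamer bound by POU factors, was found in 7 of 18 H2A and 6 of 15 H2B promoters, in none of the H1, H3 and H4 promoters, and in 1.6% of all promoters. A match is a description of the letters and was not tied to a change in level.

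Among core histones, 4 of 7 H3 genes and 2 of 9 H2B genes tested were higher, beside 24.5% of all genes tested. The H2B count was thus close to the share among all genes. H3 genes encode the replication-coupled forms of H3, which with H4 form the centre of the nucleosome. Of 7 H3 genes tested, 4 passed, and the fold changes of the others were also above 0. Hist1h3f had 8, 6 and 7 counts with vehicle and 25, 22 and 24 with ALX-5407, a log2 fold change of 1.56 (SE 0.473, adjusted p = 0.0123). Hist1h3a had 27, 10 and 28 counts with vehicle and 55, 60 and 51 with ALX-5407, a log2 fold change of 1.16 (SE 0.371, adjusted p = 0.0164). In both genes the groups lay apart, and the treated libraries were close to each other. Hist1h3e had 54, 32 and 49 counts with vehicle and 81, 97 and 78 with ALX-5407, a log2 fold change of 0.74 (SE 0.261, adjusted p = 0.0287). Hist1h3c, the H3 gene with the highest level per length, had 73, 75 and 104 counts with vehicle and 145, 156 and 119 with ALX-5407, a log2 fold change of 0.55 (SE 0.21, adjusted p = 0.042). The groups of Hist1h3c did not overlap but came close, at 3.38 CPM in the highest control library and 3.39 CPM in the lowest treated one. Its call was lost in DESeq2 (adjusted p = 0.0506) and without Th1 replicate 1 (0.165), Th1 replicate 2 (0.138), ALX replicate 1 (0.102) or ALX replicate 2 (0.111). Hist1h3i and Hist1h3h had log2 fold changes of 0.54 (adjusted p = 0.272) and 0.78 (adjusted p = 0.19), with overlapping libraries. The number of H3 genes that passed depended on single libraries, with 0 without Th1 replicate 2 and 2 without ALX replicate 2. Without Th1 replicate 3, Hist1h3h passed at a log2 fold change of 1.40 (adjusted p = 0.03).

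H2B pairs with H2A on the outer faces of the nucleosome. Hist1h2bj had 38, 33 and 52 counts with vehicle and 133, 126 and 98 with ALX-5407, which set the groups well apart. Its log2 fold change was 1.35 (SE 0.25, adjusted p = 0.000327). Hist1h2bn had 6, 3 and 8 counts with vehicle and 13, 27 and 34 with ALX-5407, a log2 fold change of 1.91 (SE 0.558, adjusted p = 0.0097). The treated libraries of Hist1h2bn were spread over a wide range, though all lay above the control. Of the other H2B genes tested, Hist1h2bm had the largest change, a log2 fold change of 0.98 (adjusted p = 0.147), and Hist3h2ba had one of -0.55 (adjusted p = 0.205). In both, the libraries of the groups overlapped. Without Th1 replicate 3, Hist1h2bm passed at 1.62 (adjusted p = 0.0471). The count of 2 became 1 without Th1 replicate 2 or without ALX replicate 3.

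H2A and H4 genes had no member that passed. In edgeR, 0 of 5 H2A genes and 0 of 8 H4 genes were higher at an adjusted p under 0.05, beside 24.5% of all genes tested. At an unadjusted p under 0.05, 0 were higher as well. With so few genes in each class, a count of 0 does not set the class apart from that share. DESeq2 and limma-voom also gave 0 for both classes at an adjusted p under 0.05, and at an unadjusted p under 0.05 limma-voom gave 1 H2A gene. In edgeR, 1 H2A gene passed without Th1 replicate 3 and 1 H4 gene without ALX replicate 3. Counts were low, and standard errors were wide, with a median of 0.52 for H2A and 0.49 for H4 on the log2 scale. Hist1h2ai, the H2A gene with the highest level per length, had 25, 16 and 22 counts with vehicle and 21, 23 and 23 with ALX-5407, a log2 fold change of -0.0944 (adjusted p = 0.868). Hist1h2ae had 16, 17 and 17 counts with vehicle and 45, 33 and 16 with ALX-5407, a log2 fold change of 0.72 (adjusted p = 0.189). ALX replicate 3 of Hist1h2ae stood at the control level and the other two above it. Hist3h2a had 10, 10 and 10 counts with vehicle and 5, 7 and 3 with ALX-5407. Every treated library lay below every control library, with a log2 fold change of -1.17 that did not pass (SE 0.587, adjusted p = 0.114).

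H4 has almost the same protein sequence in every gene. Hist1h4i had the highest level per length of the replication-dependent genes tested in the control group, 8.82 CPM per kilobase, and stood at 7.09 CPM per kilobase with ALX-5407, next to Hist1h2bj at 7.15. It had 172, 211 and 223 counts with vehicle and 171, 234 and 153 with ALX-5407, and the log2 fold change was -0.31 (SE 0.177, adjusted p = 0.162). Hist1h4d had 52, 38 and 36 counts with vehicle and 76, 56 and 66 with ALX-5407, a log2 fold change of 0.47 (SE 0.277, adjusted p = 0.176). Hist1h4j, with 10, 8 and 7 counts against 12, 15 and 18, had a log2 fold change of 0.66 (SE 0.502, adjusted p = 0.302). The H4 gene with the highest level per length was thus not higher, and the libraries of Hist1h4d came close without overlapping in counts but overlapped in CPM.

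**Figure D3:**
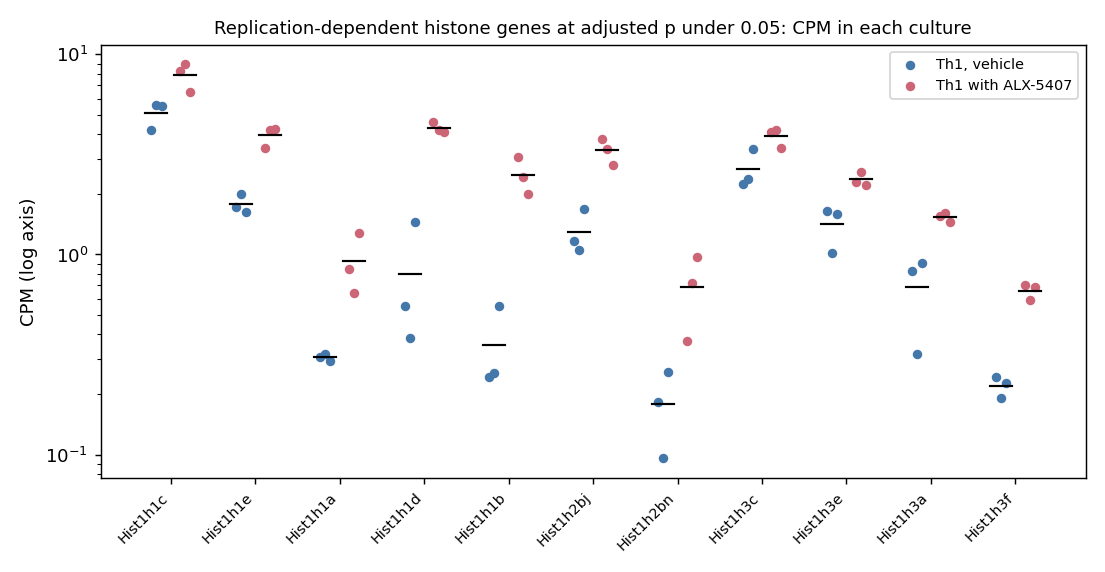
CPM in each library, on a log axis, of the 11 replication-dependent genes at an adjusted p under 0.05, blue for vehicle and red for ALX-5407, with the mean of 3 libraries as a line. In each gene the 3 red points lie above the 3 blue points, with the smallest gap in Hist1h3c (3.38 and 3.39 CPM).

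Copies and gene models bear on these values. Core histone genes share long stretches of sequence, and the sources used here do not say whether counting used strand or kept reads with more than 1 possible origin. The share of a gene's 100-base stretches found in another gene was 28.4% for Hist1h3c, 32.2% for Hist1h3a, 34.3% for Hist1h3f and 42.9% for Hist1h3e. It was 40.1% for Hist1h2bj and 52.1% for Hist1h2bn, so the counts of these genes are uncertain. Among the named H2A genes, which did not pass, it was 88.4% for Hist1h2ai, 30.7% for Hist1h2ae and 29.8% for Hist3h2a. For the named H4 genes it was 15.1% (Hist1h4i), 0.0% (Hist1h4d) and 19.0% (Hist1h4j). Of 14 replication-dependent genes tested with under 25% of stretches shared, 5 were higher, with a median log2 fold change of 0.64, and of 20 with 25% or more, 6 were higher, with a median of 0.68. Divided by the annotated end, 5 of 14 genes whose model runs over 100 bases past the stem-loop were higher (median 0.64), 3 of 9 whose model ends within 100 bases of it (median 0.74), and 3 of 11 with no stem-loop in the model (median 0.54). Genes that rose were found in each of these divisions, beside 24.5% of all genes tested, and the differences between the divisions were not tested.

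Variant histones took most of the histone reads, and their median change was smaller. Of the 10 replication-independent genes tested, 7 were higher and 1 was lower, beside 24.5% and 23.2% of all genes tested. Their median log2 fold change was 0.34, and the 3 H2afb genes had no count in any library. The median standard error was 0.09, against 0.42 for the replication-dependent genes. By level per length in the control group, H2afz (173 CPM per kilobase), H3f3b (126) and H2afy (93.8) came first, followed by H1f0 (32.4), H2afv (22.5), H3f3a (20.0), H2afx (16.5) and H2afj (13.99), while H1fx (0.941) and H2afy2 (0.110) were low.

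H2afx encodes H2A.X, the variant that is phosphorylated around DNA breaks, and its mRNA can end in the stem-loop or in a poly(A) tail. It had 753, 808 and 605 counts with vehicle and 1397, 1625 and 1490 with ALX-5407, or 22.8 ± 3.06 and 41.8 ± 2.07 CPM (SD, n = 3). The groups lay well apart, with a log2 fold change of 0.87 (SE 0.0995, adjusted p = 2.61e-06). H1fx, a linker histone variant expressed outside S phase as well, had 43, 42 and 24 counts with vehicle and 74, 90 and 87 with ALX-5407. Its log2 fold change of 1.02 (SE 0.277, adjusted p = 0.00622) was the only one of a variant over 1 that passed. H1f0, the linker variant of cells that have stopped dividing, had 1872 to 2409 counts with vehicle and 2274 to 2625 with ALX-5407, and overlapped between groups, with a log2 fold change of 0.058 (adjusted p = 0.638).

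H2afz and H2afv encode the forms of H2A.Z, a variant found at promoters. H2afz went from 307 ± 31.4 to 369 ± 18.5 CPM (SD, n = 3), a log2 fold change of 0.26 (SE 0.0803, adjusted p = 0.0122). H2afv went from 36.7 ± 0.901 to 49.2 ± 3.98 CPM (SD, n = 3), a log2 fold change of 0.42 (SE 0.0826, adjusted p = 0.000504). Both rose with no overlap between groups, but the call of H2afz was lost without Th1 replicate 1 (adjusted p = 0.0681), Th1 replicate 2 (0.0677) or ALX replicate 1 (0.0678). H2afj, an H2A variant, rose from 25.6 ± 1.65 to 33.9 ± 3.899 CPM (SD, n = 3), a log2 fold change of 0.41 (SE 0.0988, adjusted p = 0.00286). H3f3a and H3f3b encode the same protein, H3.3, which is placed in chromatin outside replication. H3f3b went from 375 ± 5.93 to 424.5 ± 22.2 CPM (SD, n = 3), a log2 fold change of 0.18 (SE 0.0693, adjusted p = 0.0422). H3f3a went from 69.99 ± 3.35 to 80.3 ± 2.77 CPM (SD, n = 3), a log2 fold change of 0.20 (SE 0.0723, adjusted p = 0.0327). The changes of the H3.3 genes were small, and under upper quartile scaling neither passed. Both also lost their calls without Th1 replicate 2, ALX replicate 1 or ALX replicate 2, H3f3b also without Th1 replicate 1 and H3f3a also without Th1 replicate 3.

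H2afy encodes macroH2A1, a large H2A variant associated with silent chromatin, and it was the member that fell. It had 21978, 21449 and 17193 counts with vehicle and 16919, 18140 and 16021 with ALX-5407. After scaling to depth the groups did not overlap, at 639 ± 69.9 and 474 ± 15.3 CPM (SD, n = 3), and the log2 fold change was -0.43 (SE 0.0816, adjusted p = 0.00038). H2afy2, which encodes macroH2A2, had 16, 4 and 3 counts with vehicle and 15, 16 and 26 with ALX-5407, a log2 fold change of 1.13 that did not pass (SE 0.598, adjusted p = 0.135). Its value rested on Th1 replicate 1, without which it passed at 2.19 (adjusted p = 0.0252). With H2afy lower and H2afz and H3f3b higher, the summed level of the variants stood at 1544 and 1545 CPM. The number of variants that rose was 4 without Th1 replicate 2 and also 4 without ALX replicate 1.

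**Figure D4:**
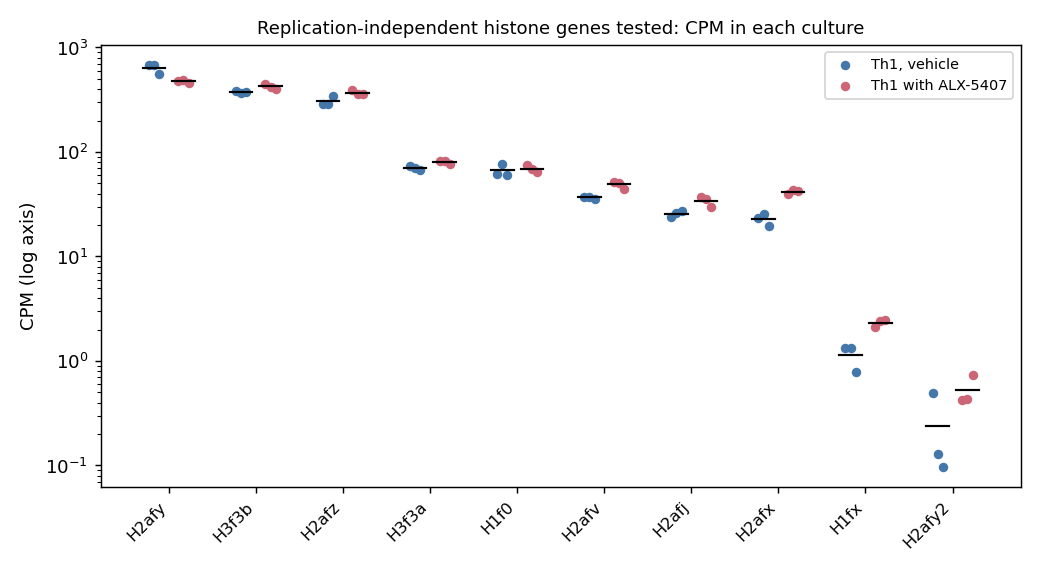
CPM in each library, on a log axis, of the 10 replication-independent histone genes tested, blue for vehicle and red for ALX-5407, with the mean of 3 libraries as a line. H2afx shows the widest gap among the variants over 10 CPM (22.8 and 41.8 CPM on average), and H2afy is the gene whose red points all lie below the blue ones.

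Genes that make, process and handle histones and their mRNAs were read from a list of 51, all of them tested, of which 26 were higher (51%, beside 24.5% of all genes tested) and 6 lower (11.8%, beside 23.2%), with a median log2 fold change of 0.21. Transcription of histone genes is switched on when cyclin E and CDK2 phosphorylate NPAT. Of 8 genes of this group 5 were higher (62.5%). Ccne1, cyclin E1, had 682, 609 and 626 counts with vehicle and 1678, 1555 and 1745 with ALX-5407, a log2 fold change of 1.19 (SE 0.0909, adjusted p = 3.91e-08). Cdk2 had 1462, 1499 and 1524 counts with vehicle and 2476, 2390 and 2385 with ALX-5407, a log2 fold change of 0.51 (SE 0.076, adjusted p = 4.2e-05). Both were higher in every treated library. Npat itself overlapped between groups, at 72.5 ± 8.07 and 67.7 ± 4.601 CPM (SD, n = 3), with a log2 fold change of -0.099 (adjusted p = 0.373).

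In the formation of the mRNA end, 4 of 10 genes were higher (40%). Slbp, the stem-loop binding protein, had 1634, 1758 and 1645 counts with vehicle and 2939, 2925 and 3181 with ALX-5407. The groups were far apart, with a log2 fold change of 0.66 (SE 0.079, adjusted p = 4.31e-06). Cpsf2, a subunit of the complex that cuts histone pre-mRNA, went from 73.9 ± 3.33 to 101.6 ± 6.76 CPM (SD, n = 3), a log2 fold change of 0.46 (SE 0.0753, adjusted p = 0.000101). Among 7 genes of histone mRNA decay, 3 were higher (42.9%) and 2 lower (28.6%). Eri1, an exonuclease that trims the stem-loop end, had a log2 fold change of 0.54 (SE 0.0718, adjusted p = 1.42e-05), and Upf1, a helicase of this decay route, one of 0.52 (SE 0.0698, adjusted p = 1.53e-05). The 2 decay genes that were lower were Tut4, which encodes a terminal uridylyltransferase, with a log2 fold change of -0.37 (adjusted p = 0.000476), and Exosc10, which encodes a nuclease of the RNA exosome, with one of -0.20 (adjusted p = 0.0366). These were named after their values were seen.

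Of 26 genes for chaperones and other partners of histones, 14 were higher (53.8%) and 4 lower (15.4%). Mcm2, a subunit of the replicative helicase that also holds H3 and H4, went from 87.5 ± 0.388 to 185.9 ± 4.32 CPM (SD, n = 3), a log2 fold change of 1.09 (SE 0.0673, adjusted p = 4.38e-09). Cenpa, the H3 variant of centromeres, had 7492, 7839 and 6919 counts with vehicle and 4193, 4352 and 3884 with ALX-5407. It is not in the gene rule but was in this list, and its log2 fold change was -1.03 (SE 0.0719, adjusted p = 1.55e-08). Its libraries lay apart in the opposite direction from those of Mcm2.

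**Figure D5:**
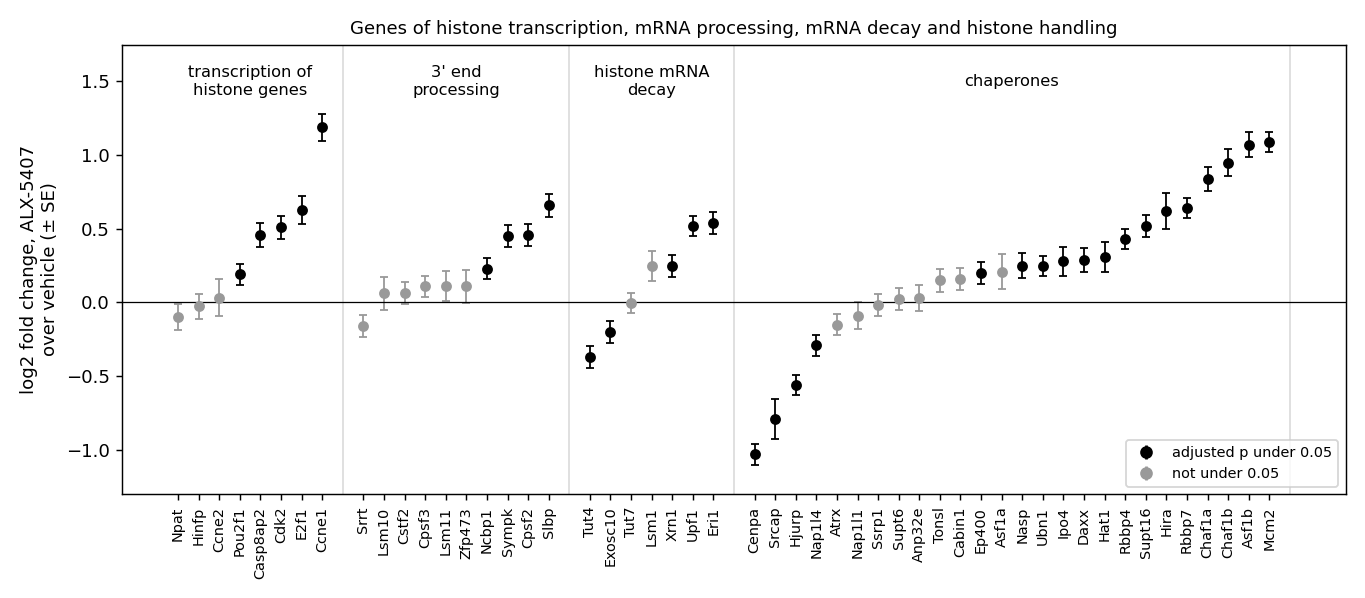
Log2 fold change with its standard error of the 51 genes of histone transcription, mRNA end formation, mRNA decay and histone handling, ALX-5407 over vehicle, in 4 groups. Black points passed an adjusted p of 0.05. Ccne1 (1.19) and Mcm2 (1.09) stand near the top and Cenpa (-1.03) at the bottom.

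Other measures also differed between the groups, in both directions. In a list of 39 S phase genes, 33 were higher, beside 24.5% of all genes tested, and 1 was lower. Their median log2 fold change was 0.68. That of the replication-dependent histone genes was 0.65 over the 34 tested. It was 0.54 over the 19 that would have passed the filter on the control libraries alone. The summed level of the S phase list was 2842, 2843 and 2984 CPM with vehicle and 4554, 4382 and 4582 CPM with ALX-5407, so the groups did not overlap. RNAs without a poly(A) tail are given as a description. Their level depends on their expression as well as on capture, so it does not measure how much such RNA was carried over. Genes of the small nuclear, small nucleolar, Cajal body and miscellaneous RNA classes, with 6 named genes such as Rn7sk, summed to 123, 130 and 149 CPM with vehicle and 107, 87.7 and 94.0 CPM with ALX-5407, so the summed level was lower in every treated library. Of the 109 tested, 25 were lower (22.9%), close to the 23.2% of all genes tested, and 0 were higher, beside 24.5%. Their median log2 fold change was -0.55. With the threshold of a log2 fold change over 1 in size, 19 were lower, beside 6.68% of all genes tested. Ribosomal RNA genes summed to 236, 176 and 246 CPM with vehicle and 379, 501 and 432 CPM with ALX-5407, nearly all from 1 gene, CT010467.1. Their summed level was higher in every treated library. The part of these quantities in the histone changes was not tested.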

How the data were processed

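The authors deposited whole-number read counts per gene for 6 libraries, not normalized or pooled, with gene names, lengths and GRCm38 coordinates. The submitters' processing notes list fastp, HISAT2 2.0.5 and featureCounts 1.5.0-p3. No column of sample values was left out. Counts were analysed in R 4.3.3 with edgeR 4.0.16, using filterByExpr (a minimum count of 10 and a minimum total of 15), TMM scaling (factors 0.965 to 1.03) and the quasi-likelihood test. Adjusted p-values are Benjamini-Hochberg values over all 15938 genes tested, two-sided. A DEG passed 0.05 in adjusted p and had a log2 fold change above 1 in size. CPM are counts scaled to TMM-adjusted library size, and CPM per kilobase uses the table's gene length. Libraries of the same group varied beyond counting error, so each counted as 1 sample. The members and lists were chosen with earlier results of these data known.

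Named genes were every histone gene that passed, every variant tested, and in each other class the 2 tested genes with the highest level per length and the largest change that missed the threshold. In the list of histone supply genes they were the 2 that passed with the smallest p in each group, with Slbp and Npat. Alternatives were RLE, upper quartile and no composition scaling, DESeq2 1.42.0, limma-voom (limma 3.58.1), other filters, a replicate block and each library left out in turn. The edgeR step was tested on simulated data. All 80 members had the same start and end in GENCODE M21. Promoter sequences are from RefSeq (GRCm38.p6), in which 73 members were matched, and no protein sequence was used here. Figures were drawn with matplotlib 3.10.9.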

Additional observations from a re-analysis of the deposited data

How the results depend on the processing

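At this depth the replication-dependent genes had wide errors, and the counts of genes that passed moved with single libraries. Leaving out each library in turn gave 10 to 20 higher histone genes (18 with all libraries), 6 to 11 DEGs, 4 to 5 H1, 0 to 1 H2A, 1 to 3 H2B, 0 to 5 H3, 0 to 1 H4 and 4 to 7 replication-independent genes higher, and 0 to 1 S phase genes lower (0 without ALX replicate 2). The median log2 fold change of the replication-dependent genes was then 0.51 to 0.64. H1f0 lay between -0.019 and 0.16 and Hist1h2ai between -0.26 and 0.016, so the direction of both changed. With a filter of at least 1 CPM in at least 3 libraries, which tests fewer genes, 5 histone DEGs, 1 H2B and 2 H3 genes were higher and the replication-independent median was 0.24. With no filter, 1 H4 gene passed. The S phase genes that were lower numbered 0 with library totals alone, 2 with upper quartile scaling and 2 with protein-coding genes alone. The log2 ratio of summed replication-independent CPM was 0.060 with library totals alone and -0.052 with upper quartile scaling. The cause of these shifts was not tested. Upper quartile scaling and protein-coding genes alone each lost the calls of H3f3b, H3f3a and Hist1h3c. Over 40 named genes and 15 settings, 554 of 591 values kept their direction and side of the threshold. The replicate numbers did not pair the libraries, with correlations between equal numbers of 0.0089, 0.0181 and 0.104, and Th1 replicate 1 correlated more with ALX replicate 2 (0.0925). With the replicate block, 18 histone genes were higher, 1 was lower and 9 were DEGs, and no named gene changed its call.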

Other observations

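Genes with histone names that are not protein-coding lie outside the rule, and 5 of the 9 listed could be tested. H3f3c, a processed pseudogene of the H3.3 family, had 42, 44 and 31 counts with vehicle and 100, 88 and 78 with ALX-5407, a log2 fold change of 1.00 (SE 0.257, adjusted p = 0.00428 in edgeR). H2afy3, a processed pseudogene named for the macroH2A family, had 5, 10 and 3 counts with vehicle and 25, 36 and 15 with ALX-5407, a log2 fold change of 1.86 (SE 0.552, adjusted p = 0.0107). It was higher although H2afy was lower. In H3f3a-ps1 the groups overlapped, with a log2 change of 0.09 (adjusted p = 0.757). Reads of such copies can come from the parent genes, and their values are uncertain for that reason.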
